A study of Mus musculus with 2 samples.

Results

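The Toll-like receptor genes and the partners that carry their signal were followed in sorted mouse alveolar macrophages (AMs). The 10 genes were chosen by symbol, with earlier results of these data known: the receptors *Tlr1*, *Tlr2*, *Tlr4*, *Tlr6*, *Tlr7* and *Tlr9*, the co-receptors *Cd14* and *Ly96*, the adaptor *Myd88*, and *Map3k7*, which encodes the kinase TAK1. All 10 were found among the 32285 genes listed, each under a single Ensembl identifier, and each had at least 1 unique molecular identifier (UMI) in the cells kept. Droplet libraries had been made from C57BL/6 mice labelled as 10 weeks old. The control library held AMs sorted from the lungs of vehicle-control mice, and the tumor library held AMs sorted from mice whose left lung had been inoculated with LLC cells, a Lewis lung carcinoma line of the same strain. AMs were isolated by flow cytometry after enzymatic digestion of the lung. The study defined them as a CD45+, strongly autofluorescent population that was F4/80+, Siglec-F+, CD11c+ and CD11b-, and the gate used for these libraries is not given in the sources used here. Each table was taken as 1 library of the condition in its label. The study's methods assign barcodes to samples by hashtag counts, which were not analysed here, so this assignment is an assumption behind every comparison of tumor with control. How many mice were pooled per library is not given in the sources used here. With 1 library per condition, the condition and the library cannot be told apart, no test was possible, and every interval below covers counting error only.

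Toll-like receptors recognise microbial molecules and molecules released by damaged cells. TLR2, which pairs with TLR1 or TLR6, and TLR4, which works with MD-2 (*Ly96*) and CD14 in sensing lipopolysaccharide, act at the cell surface, whereas TLR7 and TLR9 sense nucleic acids in endosomes. All of these receptors can signal through MyD88, which leads over IRAK kinases and TRAF6 to TAK1 and from there to JNK and NF-kB. The study examined this route upstream of *Inhba*, the gene of the activin A subunit, in AMs, so the genes were also compared between cells with and without an *Inhba* UMI.

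The promoters printed here belong to a receptor whose level differed with *Inhba*, a receptor whose UMIs differed between the libraries, and the adaptor shared by the receptors. RefSeq promoter entries on GRCm38.p6, 300 bases each with 250 before and 50 after the start site, were matched for 6 of the 10 genes: *Tlr1*, *Tlr2*, *Tlr6*, *Tlr9*, *Myd88* and *Map3k7*. Motifs were searched on both strands and are in capitals: the kB consensus, which NF-kB proteins bind, an AP-1 motif, TGANTCA, and an ETS motif, GAGGAAGT. The *Tlr2* entry lies at chr3:83841559-83841858, the *Tlr1* entry at chr5:64933509-64933808 and the *Myd88* entry at chr9:119339969-119340268, all on the minus strand and written 5′ to 3′.
Tlr2: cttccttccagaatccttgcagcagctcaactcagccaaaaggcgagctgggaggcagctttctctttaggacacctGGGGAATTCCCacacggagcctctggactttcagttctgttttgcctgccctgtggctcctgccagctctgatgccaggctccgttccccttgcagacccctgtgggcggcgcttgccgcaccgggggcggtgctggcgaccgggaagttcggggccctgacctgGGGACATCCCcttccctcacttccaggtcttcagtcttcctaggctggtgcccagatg
Tlr1: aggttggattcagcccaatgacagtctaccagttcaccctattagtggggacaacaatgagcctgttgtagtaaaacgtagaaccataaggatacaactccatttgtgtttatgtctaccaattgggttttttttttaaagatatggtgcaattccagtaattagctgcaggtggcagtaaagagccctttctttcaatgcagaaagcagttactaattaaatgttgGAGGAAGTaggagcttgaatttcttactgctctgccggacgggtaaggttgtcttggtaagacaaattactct
Myd88: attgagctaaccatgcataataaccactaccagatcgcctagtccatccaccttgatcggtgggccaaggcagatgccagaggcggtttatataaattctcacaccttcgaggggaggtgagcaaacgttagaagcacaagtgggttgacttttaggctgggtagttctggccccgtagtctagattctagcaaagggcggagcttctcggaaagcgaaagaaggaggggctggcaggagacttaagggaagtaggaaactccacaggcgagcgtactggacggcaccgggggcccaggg
The *Tlr2* window held 3 matches to the kB consensus, which began 173, 172 and 8 bases before the start site, so that the former pair overlap in 1 run of capitals. The *Tlr1* window held 1 match to the ETS motif, 23 bases before the start site, and a second RefSeq start of *Tlr1*, not printed, held none, and the *Myd88* window held no match to any of these motifs. Of the entries not printed, *Map3k7* held 1 match to the kB consensus, *Tlr9* held 1 each to the AP-1 and ETS motifs, and *Tlr6* held none. Over 32851 promoter windows of the same length, 8.46% held the kB consensus, 7.81% the AP-1 motif and 3.20% the ETS motif. A match is a description of the letters and not a binding site.

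Barcodes with at least 500 genes and at most 10% mitochondrial UMIs were kept, which left 6185 of 8485 in the control and 7666 of 9175 in the tumor library, called control AMs and tumor AMs from here on. These held 64850143 and 68801889 UMIs, with medians of 10370 and 8264 UMIs per cell. Levels are UMIs summed over cells per 1000000 UMIs of the same cells (CPM), and 25 barcodes were shared by the libraries, 17 of them among the kept cells of both. The 12 AM markers checked were all detected in both libraries, and at least 2 of them were carried by 99.8% of the cells in control and 99.3% in tumor AMs. Their levels differed, however: *Marco*, a scavenger receptor gene, was at 585 CPM in control and 207 CPM in tumor AMs, *Ear1* at 516 and 286, *Car4* at 251 and 147, and *Krt79* at 495 and 306, while *Siglec1* was at 23.9 and 32.4. *Fabp4*, at 349 and 372, *Itgax*, at 362 and 384, *Pparg*, at 127 and 119, and *Chil3*, at 11657 and 10519, differed less. Markers of other cells also differed: the 5 monocyte-derived macrophage markers summed to 8.82 CPM in control AMs and 29.2 CPM in tumor AMs, with none at 0, and at least 2 of them were found in 10 and 111 cells. The 5 fibroblast markers summed to 0.709 and 31.7 CPM, with *Lum* at 0 in control AMs. The 7 epithelial markers summed to 127 and 42.2 CPM, with none at 0 in either library, and 19.8% and 3.22% of cells carried at least 2 of them. *Epcam*, at 53.7 and 4.39 CPM, and *Cdh1*, at 40.8 and 19.3 CPM, made up most of that sum. The 7 neutrophil markers summed to 63.4 and 46.4 CPM, with *Camp* and *Ngp* at 0 in control AMs, and *Ly6g*, *Retnlg* and *Ngp* at 0 in tumor AMs. *Itgam*, which encodes CD11b, was at 2.10 and 15.1 CPM. The part of these cells in the results was not tested beyond the values given below.

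*Cd14* was higher under tumor-bearing than under control conditions. Its level was 203 CPM (95% interval 200 to 207) in control AMs and 374 CPM (370 to 379) in tumor AMs, a ratio of 1.84 and a log2 ratio of 0.88 (0.85 to 0.91). Of the 8 members with at least 50 UMIs in each library, *Cd14* was at least 1.5-fold higher in tumor AMs and none was 1.5-fold lower. Among the 10975 genes with as many UMIs in each library, 5.99% were at least 1.5-fold higher and 8.06% at least 1.5-fold lower. The other 7 members had log2 ratios between −0.23 and 0.16. *Tlr1* reached 50 UMIs over both libraries together only through its tumor UMIs, so its passing the fold is no support for a pattern among the members. On that looser filter, used in the rest of the text, 8.44% of 12267 genes were at least 1.5-fold higher and 11.0% at least 1.5-fold lower, and the median log2 ratio over these genes was −0.06.

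Among the receptors at the cell surface, *Tlr2* was at 480 CPM (475 to 486) in control AMs and 510 CPM (505 to 515) in tumor AMs (log2 ratio 0.09, 0.06 to 0.11). *Tlr4*, the lipopolysaccharide receptor, was at 45.5 CPM (43.9 to 47.2) and 50.8 CPM (49.1 to 52.5) (log2 ratio 0.16, 0.09 to 0.23). Both intervals exclude a log2 ratio of 0, yet the sizes are far under the 1.5-fold mark. *Tlr6*, a partner of TLR2, was at 5.10 CPM (4.57 to 5.68) and 4.96 CPM (4.44 to 5.51) (log2 ratio −0.04, −0.26 to 0.18). *Tlr1*, the other partner, had 6 UMIs in 6 control cells and 53 UMIs in 51 tumor cells, or 0.0925 CPM (0.0340 to 0.201) and 0.770 CPM (0.577 to 1.01), with a log2 ratio of 3.06 (1.84 to 4.57). It was found in 0.665% of tumor cells before thinning, so the ratio rests on a small set of cells. With every cell thinned the log2 ratio was 1.80 (−0.06 to 4.26), and with the mean of each cell's own CPM it was 2.13.

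Of the endosomal receptors, *Tlr7*, a sensor of single-stranded RNA, was at 61.2 CPM (59.3 to 63.1) in control AMs and 60.7 CPM (58.9 to 62.6) in tumor AMs. Its log2 ratio was −0.01, with an interval from −0.07 to 0.05. *Tlr9*, a sensor of unmethylated CpG DNA, had 0 UMIs in control AMs and 2 in tumor AMs. It was therefore not detectable at this depth in control AMs, where the upper limit of the interval was 0.0569 CPM.

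The co-receptor *Ly96* was at 16.4 CPM (15.5 to 17.5) in control AMs and 18.2 CPM (17.2 to 19.3) in tumor AMs (log2 ratio 0.15, 0.03 to 0.27). This interval included 0 in cells with no *Apoe* UMI (0.02, −0.13 to 0.16) and without cells that carried 2 markers of another type (0.08, −0.06 to 0.21), among others, and the log2 ratio reached 0.31 with every cell thinned. *Myd88* went the other way, with 62.9 CPM (61.0 to 64.9) and 53.7 CPM (52.0 to 55.4) (log2 ratio −0.23, −0.29 to −0.17). *Map3k7* was at 34.0 CPM (32.6 to 35.4) and 32.4 CPM (31.0 to 33.7), and the interval of its log2 ratio, −0.16 to 0.01, included 0. Thus of the lipopolysaccharide complex, *Cd14* differed much more between the libraries than *Tlr4* or *Ly96*, while the adaptor and the kinase downstream were lower or level.

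**Figure D1:**
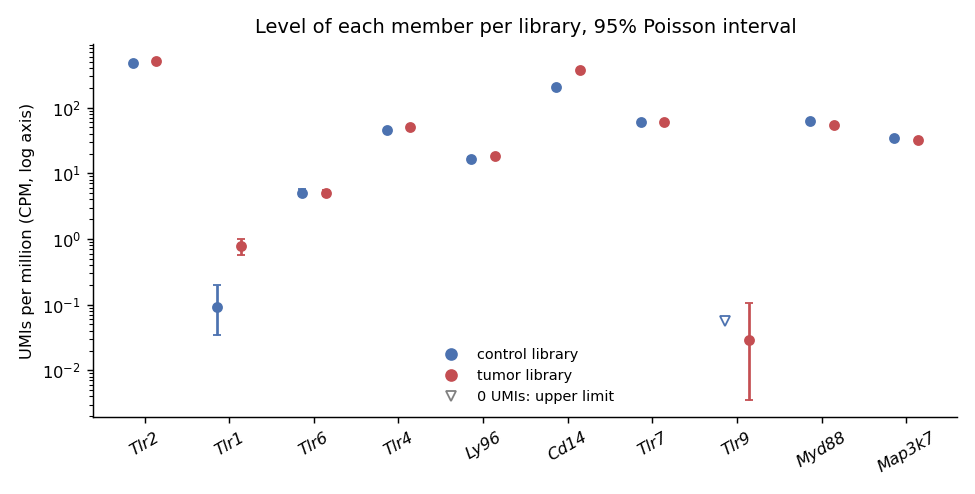
Level of each of the 10 genes in the control and tumor libraries, as CPM on a log axis; points are the summed level of each library, bars the 95% Poisson interval, and the open triangle the upper limit for a gene with 0 UMIs. *Cd14* stood at 203 and 374 CPM and *Tlr1* at 0.0925 and 0.770 CPM, while the points of the other detected members with 50 or more UMIs lay close together.

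Some of these genes sit near or within others. On GRCm38, with the GENCODE M21 annotation, *Tlr1* (chr5:64924679-64933563) and *Tlr6* (chr5:64952031-64960097) are neighbouring paralogs on the minus strand. Of the 3091 distinct 30-base stretches in *Tlr1* transcripts, 612 also occur in *Tlr6*, the nearest of them beginning 380 bases from the end of a *Tlr1* transcript. In *Tlr6* transcripts the nearest began 1320 bases from the end. What these stretches do to the counts of either gene was not tested. *Myd88* (chr9:119335934-119341411, minus strand) lies within *Slc22a14* on the same strand, which had 2 and 0 UMIs over all barcodes, and overlaps *Acaa1a* on the opposite strand, which had 7482 and 6694, and the default settings of Cell Ranger, which the study's methods name, count reads on the strand of the gene. *Tlr2* (chr3:83836272-83841767, minus strand), *Tlr4* (chr4:66827584-66930284, plus strand), *Ly96* (chr1:16688051-16709611, plus strand), *Tlr7* (chrX:167304929-167330558, minus strand) and *Tlr9* (chr9:106222598-106226883, plus strand) overlap no other annotated gene. *Map3k7* (chr4:31964097-32023467, plus strand) overlaps a pseudogene and a small nuclear RNA gene that are not listed in the tables.

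The share of cells with a UMI was compared after each cell had been thinned, without replacement, to 3800 UMIs, since the libraries differed in depth. This kept 5590 control and 6937 tumor cells and left out 595 and 729 shallower ones. The share with *Cd14* was 43.8% (42.5 to 45.1) in control AMs. In tumor AMs it was 59.9% (58.7 to 61.0), a difference of 16.1 percentage points (14.3 to 17.8). Without thinning the shares were 66.7% and 75.4%. At least 2 *Cd14* UMIs were found in 16.6% and 34.0% of thinned cells, and at least 5 in 1.84% and 5.87%, so the shares at these higher thresholds also differed. The median cell had 0 *Cd14* UMIs in control AMs and 1 in tumor AMs, and the 99th percentile was 6 and 8.

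*Tlr2* was the most widely detected of the genes, with shares of 77.2% (76.1 to 78.3) and 79.6% (78.6 to 80.6) in control and tumor AMs, and the median thinned cell held 2 *Tlr2* UMIs in both libraries. *Tlr4* was found in 15.6% (14.6 to 16.5) and 17.8% (16.9 to 18.8) of cells. Without thinning both turned, with shares of 92.5% and 91.9% for *Tlr2* and of 35.6% and 33.9% for *Tlr4*, in libraries whose median depth per cell differed. *Myd88* was found in 21.1% (20.0 to 22.2) and 18.5% (17.6 to 19.4), a difference of −2.61 points (−4.04 to −1.20). The intervals of the differences of *Tlr6*, *Tlr7*, *Tlr9* and *Map3k7* included 0. *Tlr1* differed by 0.134 points (−0.00154 to 0.273) in the draw used and by 0.177 points (0.0342 to 0.327) in the value expected over all draws of the thinning. *Ly96* was found in 5.21% and 6.04% of cells, a difference of 0.834 points (0.00974 to 1.65), but the expected difference over all draws was 0.234 points (−0.617 to 1.07), and no difference is read from it. In the draw used, the interval lay above 0 for 21.9% and below 0 for 28.7% of the 12267 genes, so such an interval is common among all genes. For comparison, the same genes were sought in cells with at least 3 markers of 1 list (T or NK, B, fibroblast, epithelial or endothelial cells) whose AM marker level was under 10% of the library's median, of which there were 10 in control AMs and 18 in tumor AMs, with medians of 4118 and 8444 UMIs. *Cd14* and *Tlr2* were each found in 0 of the former and 1 of the latter, far under their shares in AMs, whereas *Myd88*, *Ly96* and *Map3k7*, which many cell types use, were found in 5, 5 and 4 of the 18 and in 0 of the 10.

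*Tlr4* with its co-receptors, and *Tlr2* with *Tlr1* or *Tlr6*, were caught together in a minority of thinned cells. *Tlr2* with *Cd14* was not counted. *Tlr4* and *Cd14* were both detected in 6.98% of control AMs (6.32 to 7.68) and in 10.8% of tumor AMs (10.1 to 11.6). *Tlr4*, *Ly96* and *Cd14*, the parts of the lipopolysaccharide complex, were detected together in 0.286% (0.164 to 0.464) and 0.649% (0.474 to 0.867). *Tlr2* with *Tlr6* was detected in 84 control and 108 tumor cells, and *Tlr2* with *Tlr1* in 3 control and 8 tumor cells. Of the 6 receptors, none was detected in 876 control and 902 tumor cells, exactly 1 in 3136 and 4035, and 2 in 1399 and 1751. These shares are bounded by the 3800 UMIs per cell and do not give the share of cells that express the genes.

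The *Tlr1* transcripts of the tumor library lay almost entirely in cells with *Apoe*, the apolipoprotein E gene, which was itself at 25.6 CPM in control AMs and 603 CPM in tumor AMs. In the 2843 tumor cells with an *Apoe* UMI, *Tlr1* had 48 UMIs in 46 cells, or 1.65 CPM (1.21 to 2.18). In the 4823 tumor cells without one it had 5 UMIs, or 0.126 CPM (0.0409 to 0.294), against 5 UMIs and 0.0834 CPM (0.0271 to 0.195) in the 5731 such control cells. Among cells without an *Apoe* UMI its log2 ratio between the libraries was 0.60, with an interval from −1.52 to 2.72. Of the 51 tumor cells with *Tlr1*, 3 carried at least 2 monocyte-derived macrophage markers, as did 1.45% of all tumor cells, and *Tlr1* was at 1.98 CPM (0.409 to 5.79) in cells with such markers and 0.743 CPM (0.552 to 0.980) in the others. In control AMs, 1 of the 6 *Tlr1* UMIs lay in the 10 cells with such markers. After thinning, all 13 tumor cells with *Tlr1* also carried *Apoe*.

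*Cd14* was likewise higher where *Apoe* was found in tumor AMs, and in control AMs the result depended on the cells and UMIs used. At equal depth it was at 487 CPM in 1996 tumor cells with an *Apoe* UMI and 313 CPM in 4941 without (log2 ratio 0.64, 0.58 to 0.70). In control AMs it was at 202 CPM in 252 cells with *Apoe* and 197 CPM in 5338 without (log2 ratio 0.03, −0.18 to 0.24). With all UMIs of all kept control cells it was at 238 CPM (225 to 252) in the 454 cells with *Apoe* and 201 CPM (197 to 204) in the others. The difference between the libraries remained in both classes of cell, with log2 ratios of tumor over control of 1.27 (1.06 to 1.49) with *Apoe* and 0.66 (0.61 to 0.72) without. In the 111 tumor cells with at least 2 monocyte-derived macrophage markers, *Cd14* stood at 754 CPM (711 to 799), against 366 CPM (361 to 370) in the other 7555. Those cells held 1141 of the 25759 *Cd14* UMIs of the tumor library, and with cells carrying 2 markers of any other type left out, the libraries differed by a log2 ratio of 0.84 (0.80 to 0.87).

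Within each library, thinned cells with an *Inhba* UMI were then compared with cells without. Among control AMs 355 of 5590 carried *Inhba* (6.35%, 5.73 to 7.02), as did 1424 of 6937 tumor AMs (20.5%, 19.6 to 21.5), and its level over all kept cells was 45.6 and 148 CPM. *Cd14* was the gene of the group with the clearest difference. In control AMs it was at 388 CPM (356 to 423) in *Inhba*-positive cells and 184 CPM (179 to 191) in *Inhba*-zero cells (log2 ratio 1.07, 0.94 to 1.21). In tumor AMs it was at 489 CPM (470 to 508) and 330 CPM (322 to 338) (log2 ratio 0.57, 0.50 to 0.63), just under the 1.5-fold mark. *Cd14* was the 1 of 8 tested members past 1.5-fold in control AMs, where 4.53% of 9968 genes were at least 1.5-fold higher and 10.6% at least 1.5-fold lower. In tumor AMs 0 of 8 members passed in either direction, against 4.45% of 10146 genes, higher and lower together. That share is not comparable with the 4.53% for higher alone in control AMs. The AM markers summed to 22124 and 16038 CPM in *Inhba*-positive and *Inhba*-zero control cells and to 14590 and 14247 CPM in the tumor cells. Over all kept cells *Chil3* alone held 11657 of 16510 CPM in control and 10519 of 13982 CPM in tumor AMs, and the sums by *Inhba* were not split by marker. The fibroblast markers summed to 0 and 1.61 CPM and to 1.48 and 15.2 CPM. The part of either list in these differences was not tested. As a share of cells, *Cd14* was found in 61.1% and 42.6% of *Inhba*-positive and *Inhba*-zero control cells, and in 71.6% and 56.8% of the respective tumor cells.

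*Tlr2* was the other member whose interval excluded a log2 ratio of 0 at this depth, in tumor AMs. It was at 611 CPM (590 to 632) in *Inhba*-positive and 512 CPM (502 to 522) in *Inhba*-zero tumor cells (log2 ratio 0.25, 0.20 to 0.31). In control AMs it was at 532 CPM (493 to 572) and 497 CPM (487 to 506) (log2 ratio 0.10, −0.01 to 0.21). *Tlr4*, in contrast, was at 50.4 and 45.1 CPM in control AMs and 54.9 and 53.1 CPM in tumor AMs, with log2 ratios of 0.16 (−0.22 to 0.52) and 0.05 (−0.14 to 0.23). *Myd88* was at 53.4 and 63.9 CPM in control AMs and 54.0 and 56.0 CPM in tumor AMs, with log2 ratios of −0.26 (−0.62 to 0.08) and −0.05 (−0.24 to 0.13). For *Map3k7* the log2 ratios were −0.21 (−0.71 to 0.25) and 0.06 (−0.18 to 0.30), and for *Ly96* they were 0.03 (−0.73 to 0.70) and 0.04 (−0.30 to 0.37). *Tlr7* was at 74.1 and 63.0 CPM in control AMs and 66.3 and 58.9 CPM in tumor AMs, and its log2 ratios of 0.23 and 0.17 had intervals that reached or crossed 0. The control intervals of several members depended on the cells and UMIs used. Of 13 alternatives, 6 put the interval of *Tlr7* above 0, with log2 ratios from 0.32 to 0.52, 6 put that of *Tlr2* above 0 (0.07 to 0.24), 3 put that of *Ly96* above 0 (0.30 to 0.36) and 4 put that of *Myd88* below 0 (−0.62 to −0.21). These include levels from all UMIs of the same cells, which was added after seeing the data. In tumor AMs 2 of the 13 put the interval of *Tlr7* above 0 (0.11 to 0.20), and another thinning seed gave 0.03 (−0.15 to 0.20). For the tumor library the intervals of the main setting exclude a 1.5-fold difference of *Tlr4*, *Myd88*, *Map3k7*, *Ly96* and *Tlr7* in either direction, as far as counting error goes. *Tlr6*, *Tlr1* and *Tlr9* had too few thinned UMIs for such a bound, although with all UMIs of the same tumor cells the interval of *Tlr6*, −0.53 to 0.28, lay within 1.5-fold. With all UMIs of the same tumor cells *Tlr1* reached the count filter and was at least 1.5-fold lower in *Inhba*-positive cells. After thinning it had 2 UMIs in *Inhba*-positive and 11 in *Inhba*-zero tumor cells. That log2 ratio was −0.51 (−3.72 to 1.69), and no direction is read from it.

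**Figure D2:**
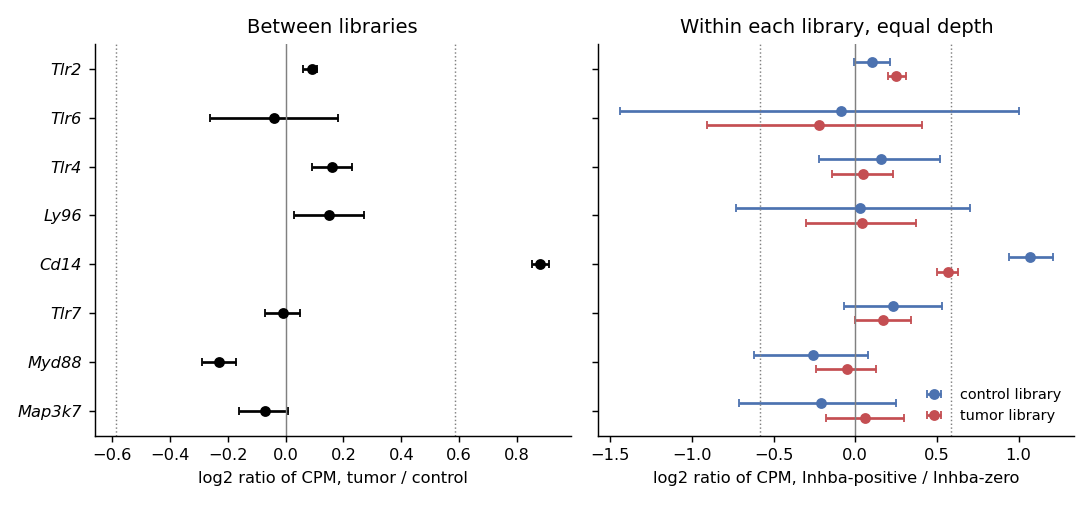
Log2 ratios of CPM for the 8 members with enough UMIs in every comparison, between the libraries at left and between *Inhba*-positive and *Inhba*-zero cells of each library at right; bars are exact 95% intervals for counting error, and dotted lines mark 1.5-fold. *Cd14* stands apart at 0.88 between the libraries and at 1.07 and 0.57 within them.

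The level of *Cd14* also followed the number of *Inhba* UMIs in the cell. In control cells with 0, 1, 2 to 4 and 5 or more *Inhba* UMIs it was at 184, 314, 449 and 599 CPM, over 5235, 203, 112 and 40 cells. In tumor cells it was at 330, 419, 520 and 615 CPM, over 5513, 660, 530 and 234 cells. The libraries thus differed most among cells with no *Inhba* UMI after thinning. Among cells with 5 or more *Inhba* UMIs the intervals overlapped, 482 to 735 CPM in control and 565 to 669 CPM in tumor AMs. The control value there rests on 91 *Cd14* UMIs. Before thinning, 10.4% of kept control and 28.2% of kept tumor cells carried *Inhba*, more than after it, so these classes depend on depth. Between the libraries, *Cd14* had a log2 ratio of 0.84 (0.78 to 0.90) in *Inhba*-zero cells and 0.33 (0.20 to 0.47) in *Inhba*-positive cells.

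*Tlr2* reached 671 CPM (547 to 815) in control cells and 747 CPM (691 to 806) in tumor cells with 5 or more *Inhba* UMIs, from 497 and 512 CPM in cells with none. *Tlr4* showed no ordered series over the same classes, with 45.1, 48.0, 47.0 and 72.4 CPM in control and 53.1, 59.0, 42.7 and 70.9 CPM in tumor cells. It was highest in the last class of both libraries. That control value rests on 11 UMIs (36.1 to 129 CPM). The tumor interval, 54.4 to 90.6 CPM, overlapped that of cells with no *Inhba* UMI (50.1 to 56.3) and lay above that of cells with 2 to 4 (34.2 to 52.7). *Myd88* was at 56.0, 52.2, 53.6 and 59.6 CPM in these tumor cells, with overlapping intervals throughout. In control cells *Myd88* was at 63.9, 62.2, 47.0 and 26.3 CPM over these classes, the last on 4 UMIs (7.17 to 67.4 CPM). *Tlr7* was at 63.0, 64.8, 75.2 and 118 CPM there, the last with an interval from 70.2 to 187 CPM, and at 58.9, 65.4, 65.5 and 70.9 CPM in tumor cells.

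**Figure D3:**
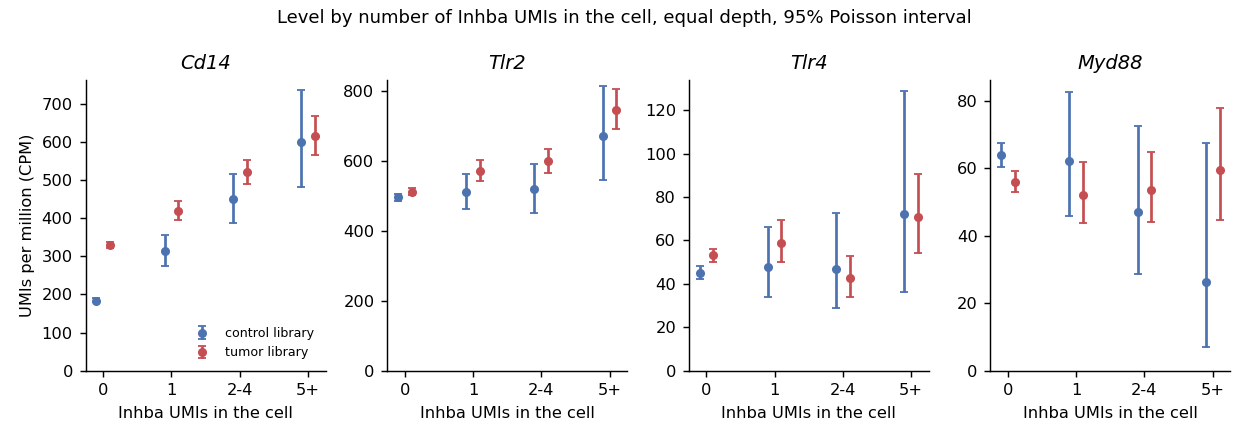
Level of *Cd14*, *Tlr2*, *Tlr4* and *Myd88* in cells grouped by their number of *Inhba* UMIs, each cell thinned to 3800 UMIs, by library; points are summed CPM and bars 95% Poisson intervals. *Cd14* is higher in each successive class of both libraries, from 184 to 599 CPM and from 330 to 615 CPM, and *Tlr4* and *Myd88* are not. *Tlr4* is highest in the last class of both, at 72.4 and 70.9 CPM, with wide intervals. Control *Myd88* is lower in each successive class, down to 26.3 CPM on 4 UMIs.

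Since *Il1b*, which encodes the cytokine interleukin 1 beta and is a familiar target of this pathway, could mark the same cells, the *Inhba* comparison was repeated within cells with and without an *Il1b* UMI. Among control cells with *Il1b*, *Cd14* was at 521 CPM in 148 *Inhba*-positive and 296 CPM in 1073 *Inhba*-zero cells (log2 ratio 0.82, 0.63 to 1.0). Among control cells without *Il1b* it was at 294 and 156 CPM (log2 ratio 0.91, 0.71 to 1.11). In tumor AMs the log2 ratios were 0.40 (0.33 to 0.48) with *Il1b* and 0.45 (0.32 to 0.58) without. The difference in *Cd14* was therefore present in each class, and somewhat smaller in each than over all cells of the library. For *Tlr2* the tumor log2 ratios were 0.20 (0.13 to 0.27) and 0.20 (0.10 to 0.30).

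The genes were also set against the presence of 8 other genes that vary between macrophage states. *Cd14* differed across most of them. It was higher in cells with *Il1b*, at 323 against 162 CPM in control AMs and 476 against 246 CPM in tumor AMs, log2 ratios of 0.99 (0.90 to 1.08) and 0.95 (0.89 to 1.02). It was lower in cells with *Ear1*, an eosinophil-associated ribonuclease gene typical of resident AMs, at 177 against 249 CPM and 276 against 444 CPM, log2 ratios of −0.50 (−0.59 to −0.41) and −0.69 (−0.75 to −0.63). It was also lower in cells with *Top2a*, a topoisomerase gene of dividing cells, at 115 against 203 CPM and 271 against 365 CPM. Cells with *Hspa1a*, a heat-shock chaperone gene, numbered 736 of 5590 in control AMs and 1677 of 6937 in tumor AMs. In them *Cd14* was at 157 against 204 CPM and 227 against 406 CPM, log2 ratios of −0.38 (−0.52 to −0.24) and −0.84 (−0.92 to −0.76). With *H2-Ab1*, a class II antigen presentation gene, *Cd14* was at 222 against 192 CPM and 512 against 338 CPM, and with *Spp1*, the osteopontin gene, at 208 against 177 CPM and 379 against 268 CPM. With *Cxcl9*, a chemokine gene induced by interferon, the control interval included 0 and the tumor log2 ratio was 0.44 (0.24 to 0.64).

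*Tlr2* moved in the same direction as *Cd14* for *Il1b* and *Hspa1a* by smaller amounts, with log2 ratios of 0.26 (0.19 to 0.32) and 0.35 (0.30 to 0.40) for *Il1b*, and −0.25 (−0.33 to −0.16) and −0.20 (−0.26 to −0.15) for *Hspa1a*. For *Apoe* in tumor AMs the directions were opposite, *Tlr2* being at 500 CPM with and 545 CPM without (log2 ratio −0.13, −0.18 to −0.07) where *Cd14* was higher. For *Ear1* and *Spp1* the intervals of *Tlr2* included 0 in both libraries. *Tlr4* in tumor cells was at 58.2 CPM with *Il1b* and 48.6 CPM without (log2 ratio 0.26, 0.11 to 0.41). *Myd88* was lower in cells with *Spp1* in both libraries, with log2 ratios of −0.20 (−0.36 to −0.04) and −0.25 (−0.45 to −0.05). With all UMIs of the same cells they were −0.10 (−0.19 to 0.00) and −0.16 (−0.30 to −0.03), so the control interval reached 0. With *Apoe* the thinned levels of *Myd88* went in opposite directions, 87.7 against 62.1 CPM in control AMs (log2 ratio 0.50, 0.16 to 0.82), and 50.9 against 57.5 CPM in tumor AMs (log2 ratio −0.18, −0.35 to −0.01). The control difference was smaller with all UMIs of the same cells (log2 ratio 0.23, 0.01 to 0.43), and over all kept control cells the levels were 66.6 CPM (59.5 to 74.2) with *Apoe* and 62.6 CPM (60.7 to 64.7) without, with overlapping intervals. In *Apoe*-positive cells *Myd88* was lower in tumor AMs, with a log2 ratio of −0.79 (−1.13 to −0.43), resting on 84 control UMIs, and in *Apoe*-zero cells the log2 ratio was −0.11 (−0.23 to 0.01). With all UMIs of the same cells, *Apoe*-positive cells were at 73.1 CPM in control and 48.0 CPM in tumor AMs. Over all kept cells, those with *Apoe* were at 66.6 CPM (59.5 to 74.2) and 48.9 CPM (46.4 to 51.5). The log2 ratio in kept cells with no *Apoe* UMI was −0.13 (−0.21 to −0.06). Over all kept cells *Myd88* was thus lower in tumor AMs in both classes, although the thinned interval of *Apoe*-zero cells included 0.

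**Figure D4:**
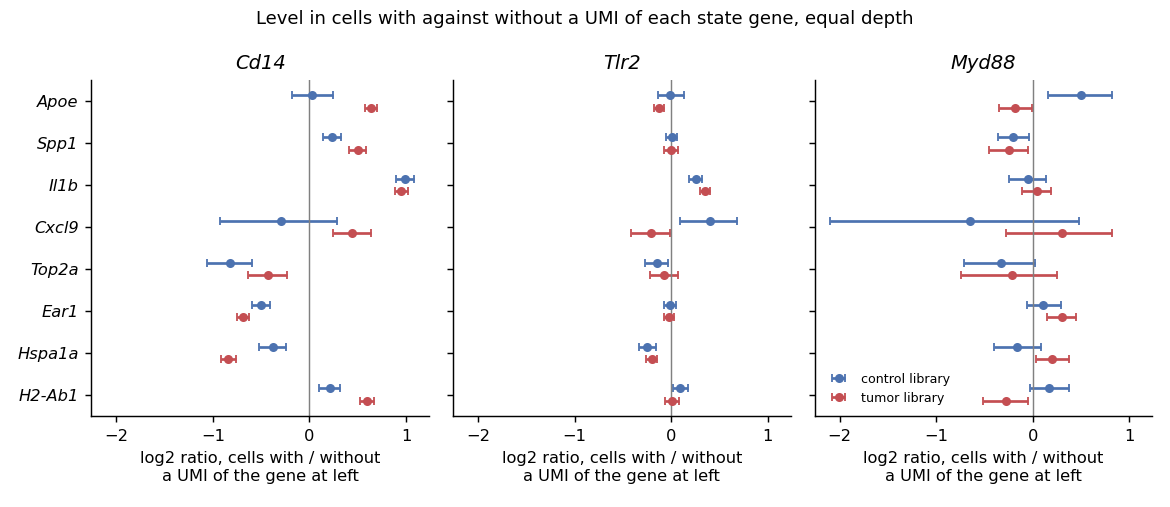
Log2 ratio of the CPM of *Cd14*, *Tlr2* and *Myd88* between cells with and without a UMI of each of 8 state genes, by library, at 3800 UMIs per cell; bars are exact 95% intervals for counting error. *Cd14* lies at 0.99 and 0.95 for *Il1b* and below 0 for *Top2a*, *Ear1* and *Hspa1a*, whereas *Tlr2* and *Myd88* spread less.

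The other genes of the pathway were taken from a list of 54, of which 49 passed the count filter between the libraries. Of the 45 with at least 50 UMIs in each library, 8 were at least 1.5-fold higher and 2 at least 1.5-fold lower in tumor AMs, beside 5.99% and 8.06% of all genes. With the mean of each cell's own CPM these counts were 7 and 2, and without mitochondrial and ribosomal protein genes 6 and 3. *Tlr3* and *Irak2* were past the fold under neither. Scaled by the median ratio the counts were 10 and 2, with *Tlr3* and *Irak2* past the fold. The share of all genes was not counted under these scalings. *Vcan*, *Bgn* and *S100a9*, which had fewer than 50 UMIs in a library, brought the 8 and 2 of summed UMIs to 10 and 3 of 49, beside 8.44% and 11.0%. The median log2 ratio of the 49 was 0.25. The 8 negative regulators all had positive log2 ratios, with a median of 0.56. The interval of *Sigirr*, on 33 control and 43 tumor UMIs, included 0. The median over all genes tested was −0.06. The share of all genes with a positive log2 ratio was not counted, so none stands beside this sign count or those of the groups below. Of the 8, 3 were past 1.5-fold. *Tnfaip3*, which encodes the ubiquitin-editing enzyme A20, was at 103 and 221 CPM (log2 ratio 1.10, 1.06 to 1.14). *Irak3*, an inhibitory kinase relative, was at 18.6 and 32.0 CPM, and *Socs1*, a suppressor of cytokine signalling, at 1.45 and 4.03 CPM, with log2 ratios of 0.78 and 1.47. *Nfkbia*, the NF-kB inhibitor and the negative regulator with the most UMIs, was at 360 and 524 CPM (log2 ratio 0.54, 0.52 to 0.57). *Nfkbia* and *Tnfaip3* are known targets of NF-kB. With the mean of each cell's own CPM in place of summed UMIs, 7 of the 8 were above 0 and *Sigirr* was at −0.15.

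All 8 genes of the NF-kB arm had positive log2 ratios and none was past 1.5-fold, with a median of 0.13. The intervals of *Ikbkg* (−0.06 to 0.18) and *Relb* (−0.07 to 0.18) included 0. With the mean of each cell's own CPM *Relb* was at −0.04 and the other 7 stayed above 0. *Rel*, an NF-kB subunit, was at 173 and 240 CPM (log2 ratio 0.47, 0.43 to 0.50). The 4 genes of the JNK arm had log2 ratios above 0 under each of the scalings tried, with a median of 0.13, and *Map2k4*, a kinase upstream of JNK, was at 35.9 and 38.6 CPM. The interval of *Map2k7* (−0.02 to 0.17) included 0. Of the 8 proximal kinases and ligases, 7 were above 0 (6 with the mean of each cell's own CPM, and 6 without mitochondrial and ribosomal protein genes) and *Irak2*, at 46.3 and 70.1 CPM, passed 1.5-fold with summed UMIs but not under either of those scalings. *Irak1*, the kinase recruited through MyD88, was at 87.1 and 98.0 CPM, and the interval of *Traf3* (−0.09 to 0.12) included 0. The other adaptors did not share a direction, and *Ticam2*, the bridging adaptor of TLR4, was at 24.8 and 28.2 CPM (log2 ratio 0.19, 0.09 to 0.28).

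The receptors outside the group went both ways. *Tlr5*, the flagellin receptor, was at 6.12 and 2.83 CPM (log2 ratio −1.11, −1.37 to −0.86), and *Tlr8* was at 37.7 and 24.0 CPM (log2 ratio −0.65, −0.74 to −0.56). *Tlr3*, the receptor for double-stranded RNA, was at 7.06 and 10.9 CPM (log2 ratio 0.62, 0.45 to 0.79). *Tlr3* and *Irak2* fell outside the rule for naming genes and were named after their values were seen, to complete the count. Among co-receptors, *Ly86*, which encodes the MD-1 protein, was at 19.6 and 35.2 CPM (log2 ratio 0.84, 0.74 to 0.94), and *Hsp90b1*, a chaperone of the receptors, was at 758 and 826 CPM. Of the interferon regulatory factors, *Irf7* was at 2.76 and 35.8 CPM (log2 ratio 3.70, 3.48 to 3.92), detected in 110 control and 1154 tumor cells, while *Irf3* was at 30.7 and 28.2 CPM.

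Among genes of endogenous ligands, *S100a8* was at 45.2 and 103 CPM (log2 ratio 1.20, 1.13 to 1.26), although a single control cell held 293 of its 2930 UMIs there. *S100a9*, its partner, had 324 UMIs in control AMs and 3 in tumor AMs, and 321 of the former lay in a single cell. *Vcan*, the versican gene, had 34 and 245 UMIs and *Bgn*, the biglycan gene, 29 and 72, with 46 and 31 of the tumor UMIs in a single cell each. Both are matrix genes, and the fibroblast markers were at 0.709 and 31.7 CPM in the same libraries. *Hmgb1*, a chromatin protein gene, was at 300 and 234 CPM (log2 ratio −0.36, −0.39 to −0.33).

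**Figure D5:**
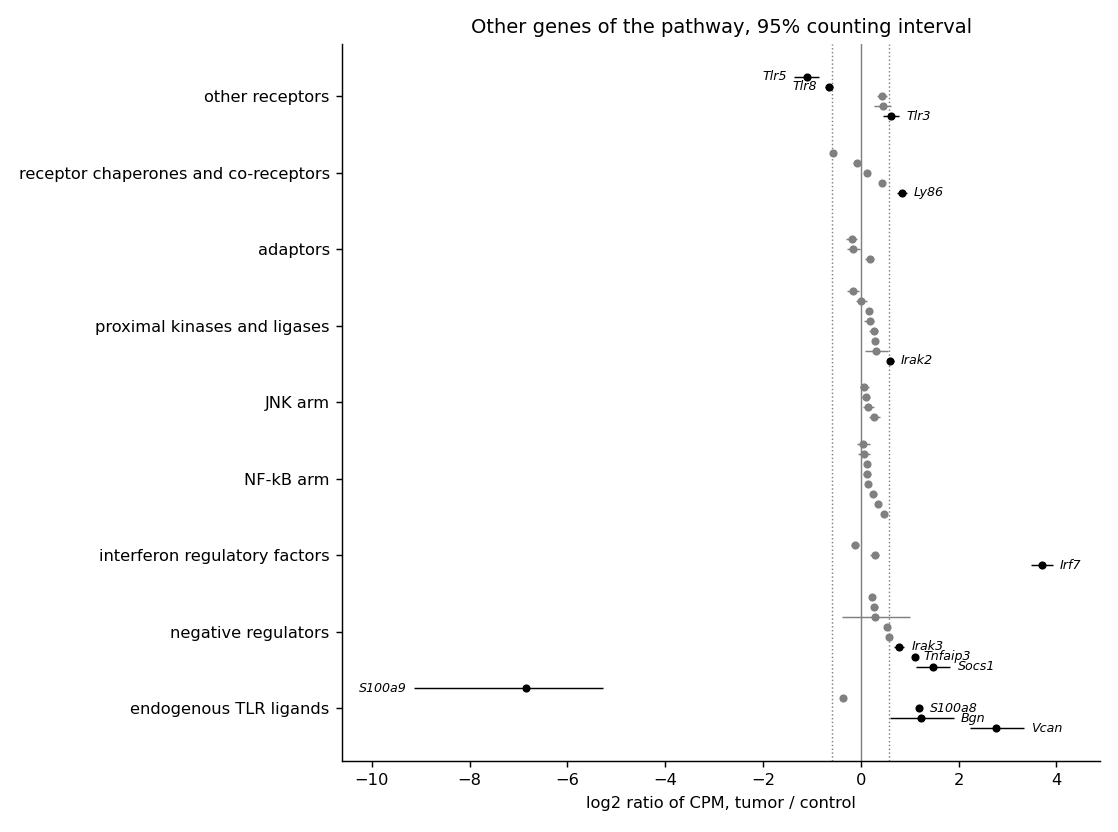
Log2 ratio of CPM, tumor over control, for the 49 other pathway genes with at least 50 UMIs, in their 9 groups; bars are exact 95% intervals for counting error, dotted lines mark 1.5-fold, and genes past it are in black with their names. All points of the negative regulators and of the NF-kB and JNK arms lie above 0 as plotted (*Relb* and *Sigirr* lay below 0, at −0.04 and −0.15, with the mean of each cell's own CPM), and *S100a9*, with 321 of 324 control UMIs in a single cell, lies far to the left. The intervals of *Sigirr*, *Ikbkg*, *Relb* and *Map2k7* include 0. The share of all genes with a positive log2 ratio was not counted.

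With respect to *Inhba*, 44 of the 54 could be compared in control AMs, and 3 were at least 1.5-fold apart, 2 higher and 1 lower, beside 4.53% and 10.6% of all genes. *S100a8* (65.2 against 37.8 CPM) and *Mapk9*, a JNK gene (25.9 against 16.2 CPM), were higher in *Inhba*-positive cells, while *Tlr5* was lower, on 5 UMIs in *Inhba*-positive and 125 in *Inhba*-zero cells. In tumor AMs 46 could be compared, and 1 was at least 1.5-fold apart, beside 4.45% of all genes, higher and lower together. This was again *Tlr5*, at 2.22 against 3.34 CPM, with an interval of its log2 ratio from −1.61 to 0.30. The tumor log2 ratios of *S100a8* and *Mapk9* were −0.02 (−0.17 to 0.12) and 0.04 (−0.27 to 0.35). The median log2 ratio over the list was 0.09 in control AMs and 0.06 in tumor AMs, beside −0.06 and −0.01 over all genes tested.

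Smaller differences were counted by their intervals. In control AMs the interval lay above 0 for 12 of the 44 genes and below 0 for 1, beside 5.73% and 8.08% of all genes tested. In tumor AMs it lay above 0 for 9 of 46 and below 0 for 1, beside 7.81% and 7.67%. *Irak2*, *Nfkb1*, *Rel* and *Tnfaip3* were above 0 in both libraries. *Rel* was at 234 against 172 CPM in control AMs (log2 ratio 0.44, 0.27 to 0.60) and 304 against 235 CPM in tumor AMs (log2 ratio 0.37, 0.29 to 0.45). *Nfkb1*, which encodes the p50 precursor, was at 203 against 164 CPM (log2 ratio 0.31, 0.13 to 0.49) and 249 against 206 CPM (log2 ratio 0.27, 0.18 to 0.36). In tumor AMs *Mapk8*, which encodes JNK1, was at 28.5 against 21.2 CPM (log2 ratio 0.42, 0.15 to 0.69), and *Nfkbia* was at 582 against 503 CPM (log2 ratio 0.21, 0.15 to 0.27). *Nfkb1* and *Mapk8* were named after their values were seen.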

How the data were processed

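Droplet libraries of sorted AMs were analysed, 1 per condition. The authors deposited raw counts, UMIs per Ensembl gene and cell barcode, which were not normalized. The submitters' processing notes name bcl2fastq 2.20, Cell Ranger 4.0.0 and mm10, and the study's methods name Cell Ranger 5.0.0 at default settings; the annotation is not given in the sources used here. The tables precede the study's doublet removal, and no doublet caller was run here. The methods assign barcodes to samples by hashtag counts, which were not analysed here, and each table was assumed to be 1 library of its labelled condition.

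From the deposited counts, 32158 of 32285 identifiers were matched to symbols. Barcodes with at least 500 genes and at most 10% mitochondrial UMIs were kept. Levels are CPM of summed UMIs with exact Poisson intervals. Ratios carry exact conditional binomial intervals and shares exact binomial intervals, all at 95% and for counting error only. A gene was compared where both groups together held at least 50 UMIs. Shares and comparisons between cells of a library used cells drawn down to 3800 UMIs (the lower of the libraries' 10th percentiles, rounded down to 100). No p-value was computed, since cells are not replicates. All 10 members are named. Of the 54 other pathway genes, the rule names those past 1.5-fold, at most the 10 of largest ratio, and the member of each group with the most UMIs. Genes outside this rule were named after their values were seen. The members, gene lists and state genes were chosen with earlier results of these data known. The letters of the kB consensus and the 30-base length for shared stretches were settled after matches with other settings had been seen. In tumor AMs, genes past the fold with *Inhba* are counted in both directions together, a choice also made after the counts were seen. Alternatives changed the cell filter, the deepest cells, cells with markers of other types, the scaling, the fold, the count filter and the thinning. Ratios, intervals and thinning were tested on simulated data. Positions come from GENCODE M21 on GRCm38. Python 3.11.15, numpy 2.4.6, scipy 1.17.1 and matplotlib 3.10.9 were used.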

Additional observations from a re-analysis of the deposited data

Results flagged for a closer look

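After thinning, in a pair of comparisons, a member differed in opposite directions in the control and the tumor library, each with an interval for counting error that excluded 0. The difference between the libraries was not tested in either. *Tlr2* in cells with *Cxcl9*, relative to cells without, had a log2 ratio of 0.40 (0.09 to 0.68) in control AMs, where 39 cells carried *Cxcl9*, and of 0.19 (−0.01 to 0.38) with all UMIs of the same cells. In tumor AMs, where 116 cells carried it, the log2 ratio was −0.21 (−0.42 to −0.01). *Myd88* in cells with *Apoe*, relative to cells without, had a log2 ratio of 0.50 (0.16 to 0.82) in control AMs, on 252 cells with *Apoe*, and of −0.18 (−0.35 to −0.01) in tumor AMs, on 1996. With all UMIs of the same cells the *Myd88* ratios were 0.23 (0.01 to 0.43) and −0.24 (−0.34 to −0.13), and over all kept control cells its level was 66.6 CPM (59.5 to 74.2) with *Apoe* and 62.6 CPM (60.7 to 64.7) without, with overlapping intervals. The control ratio of both comparisons was thus smaller with all UMIs than after thinning. With all UMIs, *Tlr7* with *Ear1* also ran in opposite directions, at −0.20 (−0.30 to −0.10) in control and 0.17 (0.08 to 0.26) in tumor AMs. So did *Myd88* with *Hspa1a*, at −0.20 (−0.34 to −0.06) and 0.14 (0.03 to 0.25). The thinned control intervals of these included 0.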

How the results depend on the processing

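The higher level of *Cd14* in the tumor library held its direction under all 11 alternatives that gave a ratio of their own, with log2 ratios from 0.61 (cells with no *Apoe* UMI) to 0.94 (scaling by the median ratio). Its higher level in *Inhba*-positive cells ranged from 0.99 to 1.40 in the control library and from 0.49 to 0.74 in the tumor library. The number of members at least 1.5-fold apart between the libraries, 2, was 1 without the 6% deepest cells, with every cell thinned, in cells with no *Apoe* UMI, and with at least 50 UMIs asked in each library (added after seeing the data), where *Tlr1* no longer counted. Its log2 ratio was 2.86 (1.51 to 4.56) without the deepest cells, 1.80 (−0.06 to 4.26) thinned and 0.60 (−1.52 to 2.72) without *Apoe*. *Tlr1* left the count because it had too few UMIs. Its log2 ratio was also smaller in these settings than the 3.06 over all kept cells. Without *Apoe* it was barely past the 1.5-fold mark of 0.58. The intervals thinned and without *Apoe* included 0. For *Inhba* in the control library the number of members, 1, was 4 with thinning to 2000 UMIs (*Tlr6*, *Cd14* and *Ly96* higher, *Map3k7* lower). There the intervals of *Tlr6* (−1.21 to 2.16), *Ly96* (−0.13 to 1.62) and *Map3k7* (−1.92 to 0.05) included 0. The number was 2 with another thinning seed (*Cd14*, and *Tlr6* with an interval from −0.02 to 1.77). It was also 2 where at least 2 *Inhba* UMIs were asked (*Cd14* higher, *Myd88* lower). The share of all genes past the fold was not counted under these settings. For *Inhba* in the tumor library the number of members, 0, was 1 with at least 2 *Inhba* UMIs and at the smaller fold tried (*Cd14*). It was also 1 with levels from all UMIs of the same cells, an alternative chosen after seeing the data (*Tlr1*, lower, from which no direction is read). By share of cells, the interval lay above 0 for 4 members (*Ly96* among them, from which nothing is read), beside 21.9% of all genes, against 2 with no thinning and 2 with thinning to 2000 UMIs, and below 0 for 1, beside 28.7% of all genes, against 5 and 2, and against 0 where at least 2 UMIs of the gene were asked (*Myd88* −0.194 points, −0.760 to 0.360). With no thinning the difference turned negative for *Tlr2* (−0.586 points), *Tlr4* (−1.64) and *Ly96* (−0.965). The intervals of *Tlr2* (−1.49 to 0.325) and *Ly96* (−2.16 to 0.223) then included 0. *Ly96* also turned with another thinning seed (−0.00644). The cause of these changes was not tested. No paired analysis was possible because the labels give 1 library per condition and no replicate numbers. Leaving out the barcodes shared by the libraries, and leaving out cells with other markers but the monocyte-derived list unused, were also added after seeing the data and moved no count of members past the fold by more than 1.5 times. Counting limits *Tlr1*, *Tlr6* and *Tlr9* most, since these had the fewest UMIs.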

Other observations

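The barcodes that did not pass the filter, 2300 in the control library and 1509 in the tumor library, held 2996945 and 1936431 UMIs. In them *Tlr2* was at 513 CPM (487 to 539) and 563 CPM (530 to 597), and *Cd14* at 135 CPM (122 to 149) and 218 CPM (198 to 240), lower than in the kept cells of each library. *Myd88* was at 33.4 CPM (27.1 to 40.6) and 27.9 CPM (20.9 to 36.4) there, also lower than in the kept cells, while *Map3k7* was at 38.0 and 34.6 CPM. These barcodes entered no comparison.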
